A study of Mus musculus with 10 samples.

Results

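The granins and the proteins that process and accompany them in dense-core vesicles were studied here through 10 genes: the granins *Chga*, *Chgb*, *Scg2*, *Scg3* and *Vgf*, the processing enzymes *Pcsk1*, *Pcsk2* and *Cpe*, and the convertase partners *Scg5* and *Pcsk1n*. They were chosen by gene symbol under a rule that uses no measured value, although earlier results of these data were known. Each symbol matched 1 of the 25232 rows of the deposited table. All 10 genes were among the 16522 genes that were tested, so none was lost to a filter on low values. The table came from RNA-seq of the spinal cord of 5 SOD1G93A and 5 WT female mice on the C57BL/6 background, all 90 days old, and the study's methods name the lumbar region. The SOD1G93A mice carry many copies of a human mutant *SOD1* transgene, and the WT mice were littermates without it. The transgene is driven by the human *SOD1* promoter and is expressed broadly, not in motor neurons alone, and the tissue was sequenced in bulk. The table holds 1 value per gene for the comparison and none for single mice, so levels below are means over all 10 libraries and the spread between mice is seen only through the standard error (SE) of each fold change.

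Granins are acidic secretory proteins that aggregate in the trans-Golgi network and help to form the dense-core vesicles in which neurons and endocrine cells store neuropeptides, hormones and growth factors. Within the maturing vesicle, the prohormone convertases PC1/3 (*Pcsk1*) and PC2 (*Pcsk2*) cut peptide precursors after pairs of basic residues, and carboxypeptidase E (*Cpe*) trims the basic residues left at the new ends. The protein 7B2 (*Scg5*) keeps PC2 from aggregating and is needed for its activity, and proSAAS (*Pcsk1n*) is an inhibitor of PC1/3. In the spinal cord, dense-core vesicles are found in sensory terminals, interneurons and motor neurons, and chromogranins have been described to bind mutant SOD1 proteins. *Scg3* and *Cpe* are also made by astrocytes.

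The cAMP response element (CRE), bound by the factor CREB, and the RE1 element, bound by the neuronal silencer REST, are textbook control elements of granin genes, so the members' promoters were searched for them. RefSeq promoters of GRCm38.p6, which cover 250 bases before to 50 bases after the annotated start, matched 8 of the 10 genes, and *Vgf* and *Cpe* did not match. The full CRE, TGACGTCA, was found in *Scg2*, *Chgb* and *Pcsk1*, thus in 3 of 8 promoters, whereas 1.79% of the 32851 promoters of the table hold it. Its first base lay 68, 72 and 78 bases before the RefSeq start, respectively. The 30 bases around it were taken, 5′ to 3′ on the strand of the gene, with the motif in capitals. The promoter of *Chga* holds TGACGTAA, a variant of the full CRE, 44 bases before the start. These letters were added to the search after the sequence was seen and stand in 0.499% of all promoters. *Scg3* holds only the shorter TGACG, 30 bases before its start. *Chga* and *Scg3* are shown because they are the genes that passed the test in the comparison of genotypes.
Scg2, chr1:79440076-79440105, minus strand: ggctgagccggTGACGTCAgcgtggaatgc
Chgb, chr2:132781559-132781588, plus strand: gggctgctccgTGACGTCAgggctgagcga
Pcsk1, chr13:75089768-75089797, plus strand: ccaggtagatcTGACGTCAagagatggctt
Chga, chr12:102554886-102554915, plus strand: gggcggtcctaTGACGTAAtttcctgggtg
Scg3, chr9:75684068-75684097, minus strand: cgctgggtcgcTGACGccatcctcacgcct

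The shorter TGACG is contained in both the full CRE and the variant. On either strand, it was found in 7 of the 8 promoters and in 20.8% of all promoters of the table. Besides the matches above, it lay 34 bases before the start of *Pcsk2* on the opposite strand and 175 bases before the start of *Scg5*, which also held it 20 and 41 bases into the transcript, the latter on the opposite strand. *Pcsk1* held a further match outside its full CRE, 50 bases before the start. *Pcsk1n* held none of the motifs searched. The letters of the left and right parts of RE1, TTCAGCACC and GGACAGC, were present only in *Scg2* among the 8 genes, against 0.371% and 6.56% of all promoters. Both parts are on the opposite strand and adjoin each other without a gap, which makes a run of 16 bases that ends 2 bases into the transcript. Each part was searched for alone, and the spacing between them was not compared with that of a complete RE1.
Scg2 RE1, chr1:79440025-79440040, minus strand: GCTGTCCGGTGCTGAA
TATAAA was found in *Chga*, 6 bases after the RefSeq start, and in 13.6% of all promoters. The GENCODE start of *Chga* is 28 bases further downstream. In contrast, the GENCODE starts of *Scg2* and *Chgb* are 94 and 364 bases further upstream, so the full CRE of these genes lies within the GENCODE gene. These matches describe the letters only, and binding of a factor was not measured.

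**Figure D1:**
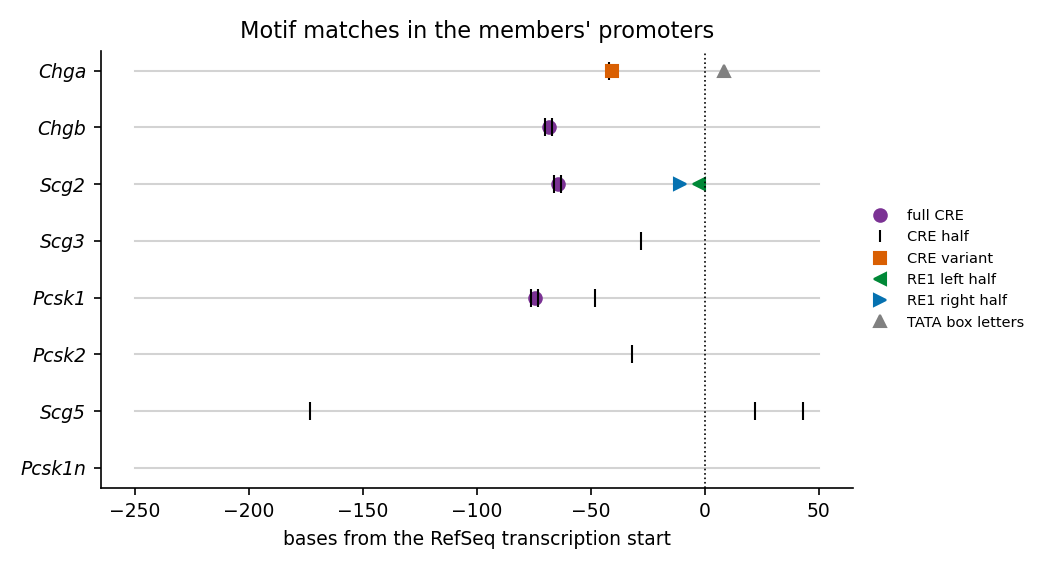
Motif matches in the RefSeq promoters of 8 genes, one line per gene, with the distance from the RefSeq transcription start in bases on the horizontal axis and one symbol per kind of motif. The full CRE of *Scg2*, *Chgb* and *Pcsk1* starts 68, 72 and 78 bases before the start, and *Pcsk1n* has no match.

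The 10 genes were well expressed in the spinal cord, and together they made up 0.334% of the summed base mean of 22158933 normalised counts. The base mean is the mean normalised read count over all 10 libraries. *Cpe* (ENSMUSG00000037852.8, chr8:64592542-64693054 in GRCm38, minus strand) was by far the highest, with a base mean of 25276, rank 53 of the 16522 genes tested. The granins followed, with *Chga* (ENSMUSG00000021194.6, chr12:102554969-102565028, plus strand) at 8709, *Scg2* (ENSMUSG00000050711.7, chr1:79434669-79440120, minus strand) at 8407, *Scg3* (ENSMUSG00000032181.7, chr9:75643189-75684056, minus strand) at 7051 and *Chgb* (ENSMUSG00000027350.8, chr2:132781278-132795079, plus strand) at 6987. *Pcsk1n* (ENSMUSG00000039278.10, chrX:7919822-7924410, plus strand), at 6412, was close to these granins. *Pcsk2* (ENSMUSG00000027419.9, chr2:143546156-143816285, plus strand) had a base mean of 4127, *Vgf* (ENSMUSG00000037428.14, chr5:137026392-137033351, plus strand) of 3458 and *Scg5* (ENSMUSG00000023236.7, chr2:113776362-113829121, minus strand) of 2673. *Pcsk1* (ENSMUSG00000021587.5, chr13:75089826-75134861, plus strand) was the lowest at 808, rank 6097.

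Since longer transcripts give more fragments, levels were compared between genes per kb of annotated exon. On this scale *Cpe* stood at 9688 normalised counts per kb, *Scg2* at 3343, *Chga* at 3160, *Pcsk1n* at 2924, *Scg3* at 2575 and *Chgb* at 2550. *Scg5* followed at 1704, *Vgf* at 1163, *Pcsk2* at 522 and *Pcsk1* at 144. Thus, the convertase mRNAs were the lowest of the 10 genes per kb, and each was below the mRNA of its partner, since *Scg5* exceeded *Pcsk2* and *Pcsk1n* exceeded *Pcsk1*. The order among *Scg2*, *Chga*, *Pcsk1n*, *Scg3* and *Chgb* was not fixed by these data, because *Chga* moved to 4625 and above *Scg2* with the length of the longest transcript, and a spread between libraries was not given. With that length *Pcsk2* rose to 874 per kb and remained the second lowest. The reads of *Pcsk2* may include those of the antisense genes *Pcsk2os1* and *Pcsk2os2*, which share 260 and 99 exon bases with it and had base means of 264 and 217, since the strand setting of the counting was not given. *Pcsk1n* shares 135 exon bases with *Eras* on the opposite strand, which had a base mean of 3.06. No exon of the other 8 genes overlapped an exon of another annotated gene.

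**Figure D2:**
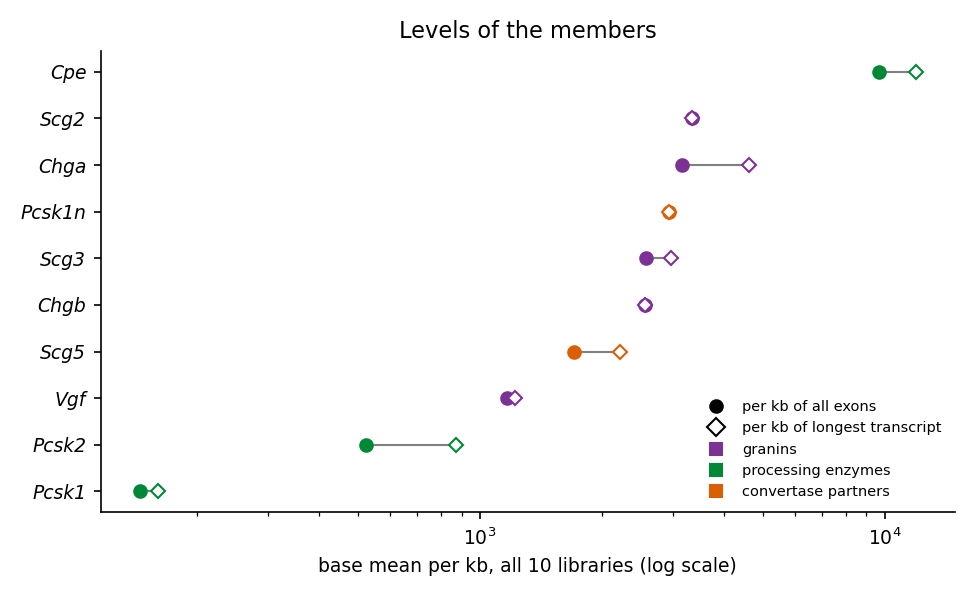
Base mean per kb of the 10 genes over all 10 libraries, on a log scale, with filled circles for the length of all exons and open diamonds for the longest transcript. *Cpe* is the highest at 9688 and *Pcsk1* the lowest at 144 normalised counts per kb of all exons.

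To find out whether these genes change at an early symptomatic stage, SOD1G93A mice were compared with WT mice. *Scg3* was upregulated by 11.2% and *Chga* was downregulated in SOD1G93A mice, and the other 8 genes did not pass the test at an adjusted p-value under 0.05. Both calls depended on the adjustment, since with the Holm or the Benjamini-Yekutieli adjustment 0 of the 10 genes passed (Benjamini-Yekutieli adjusted p of the DESeq2 values 0.0801 for *Scg3* and 0.109 for *Chga*), and *Chga* did not pass at a threshold of 0.01. With the Benjamini-Hochberg adjustment, 1 of 10 genes was called higher, against 3.86% of all genes tested, and 1 of 10 was called lower, against 3.24%. In either direction the 2 calls compare with 7.10% of all genes tested and with 9.36% of the 6045 genes whose base mean lay in the range of the 10 genes. The count of 2 rests on single genes and is not read as a result about the group. The median log2 fold change of the 10 genes was 0.015, beside -0.0014 for all genes tested and -0.021 for the genes in the same range of base mean.

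*Scg3* encodes secretogranin III, which binds chromogranin A and cholesterol and holds granin aggregates at the vesicle membrane. Its log2 fold change was 0.15 (SE 0.043, n = 5 per group), with a 95% interval of 0.070 to 0.24 and an adjusted p of 0.0078 by the DESeq2 Wald test with Benjamini-Hochberg adjustment. It ranked at 669 of 16522 by p-value. On the linear scale the interval runs from 4.96% to 17.8% higher in SOD1G93A mice.

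*Chga* encodes chromogranin A, the founding granin and the precursor of peptides such as catestatin and pancreastatin. Its log2 fold change was -0.17 (SE 0.048, n = 5 per group), with a 95% interval of -0.26 to -0.074 and a DESeq2 adjusted p of 0.0106. In percent, *Chga* fell by 11.1%, with an interval of -16.7% to -5.03%, and it ranked at 727 by p-value. The 2 granins that passed the test thus moved in opposite directions by a similar size.

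*Scg2*, the precursor of secretoneurin and EM66, had a log2 fold change of 0.12 (SE 0.054), with a 95% interval of 0.011 to 0.22 that did not reach the threshold after adjustment (DESeq2 adjusted p = 0.205). *Vgf*, whose precursor is induced by nerve growth factor and gives rise to TLQP-21, stood at 0.036 (SE 0.071; adjusted p = 0.864). *Chgb*, which encodes the other major chromogranin, stood at 0.019 (SE 0.041; adjusted p = 0.886). The interval of *Chgb* runs from -0.063 to 0.10, so a change of the size estimated for *Chga* lies outside it, whereas the interval of *Vgf*, from -0.10 to 0.18, is wider.

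Among the enzymes, *Cpe* had a log2 fold change of 0.068 (SE 0.033), with a 95% interval of 0.0043 to 0.13 and a DESeq2 adjusted p of 0.23. *Pcsk2* stood at -0.037 (SE 0.033; adjusted p = 0.632) and *Pcsk1* at 0.012 (SE 0.066; adjusted p = 0.961). No enzyme passed the test. Among the convertase partners, *Scg5* stood at -0.0088 (SE 0.037; adjusted p = 0.942), which was the smallest difference of the 10. *Pcsk1n* stood at -0.089 with the largest SE, 0.087 (adjusted p = 0.669), and its interval from -0.26 to 0.082 includes the sizes seen for both *Chga* and no change.

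**Figure D3:**
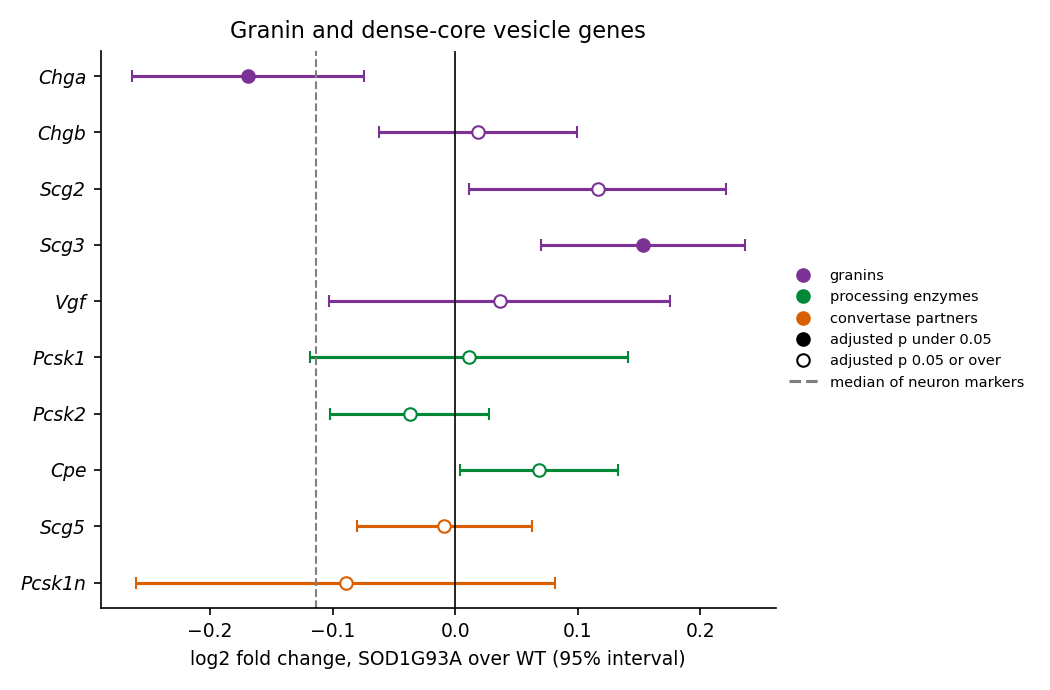
Log2 fold change of the 10 genes, SOD1G93A over WT, with 95% intervals from the SE as bars, coloured by role and filled where the adjusted p-value was under 0.05. *Chga* at -0.17 and *Scg3* at 0.15 are filled, and the dashed line marks the median of the neuron markers at -0.11.

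The fold changes in the table bear the marks of moderation towards 0. The largest SE in the table was 0.0924, and the SE was smallest for the rarest genes, with a median of 0.0108 in the lowest decile of base mean against 0.0416 in the highest decile. Such a pattern can arise when a normal prior is placed on the fold change, so a small SE of a rare gene is not a sign of precision. With a prior SD of 0.185, read from the largest SE, the estimates without the prior would be -0.18 for *Chga* (SE 0.052) and 0.16 for *Scg3* (SE 0.045). For the other genes removal of the prior multiplied the estimate by between 1.03 for *Cpe* and 1.5 for *Pcsk1n*, which moved from -0.089 to -0.13. The Wald statistic and the p-value are the same with and without it. Each SE is also compatible with a second, much wider solution, with an SE without the prior between 0.26 for *Pcsk1n* and 1.01 for *Cpe*, and it was assumed that this solution does not hold for genes this abundant. From the SE without the prior, the smallest log2 change that would have passed the threshold was 0.099 for *Cpe*, 0.10 for *Pcsk2*, 0.13 for *Chgb*, 0.23 for *Pcsk1*, 0.25 for *Vgf* and 0.38 for *Pcsk1n*. On this scale without the prior, an estimated rise of *Pcsk1n* of less than 30.4% could therefore not have been called. For *Cpe* the limit was 7.08%. On the scale of the deposited estimates the limits are lower, so these limits are not to be set beside the percent changes given above.

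**Figure D4:**
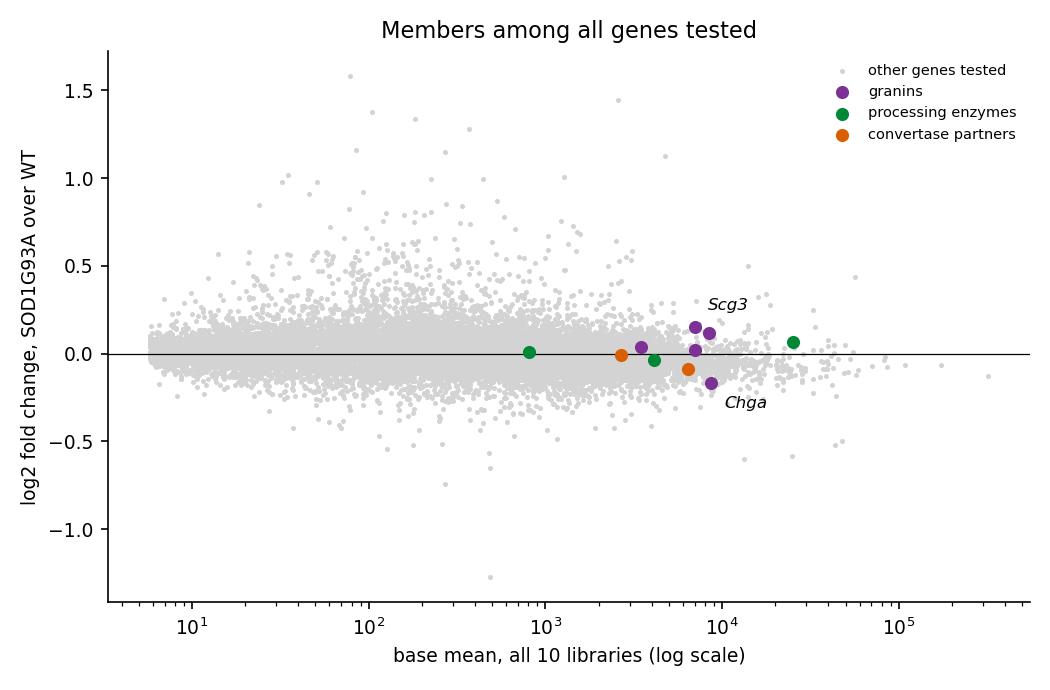
Log2 fold change against base mean (log scale) for all 16522 genes tested, in grey, with the 10 genes coloured by role. All 10 lie between -0.17 and 0.15, among genes of a base mean of 808 or more.

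Whether the genes differed from each other was examined over all 45 pairs. Estimates of 2 genes come from the same mice and may be correlated, so the widest 95% interval that the SEs allow was formed from the sum of both SEs, and no p-value was computed. The interval excluded 0 in 6 pairs, and each of these held *Chga* or *Scg3*. The log2 fold change of *Chga* was lower than that of *Scg3* by 0.32, with an interval for *Chga* minus *Scg3* of -0.50 to -0.14. *Chga* was also below *Scg2*, with a difference of -0.29 (-0.49 to -0.086), below *Cpe*, with -0.24 (-0.40 to -0.079), and below *Chgb*, with -0.19 (-0.36 to -0.012). *Scg3* was above *Pcsk2* by 0.19 (0.042 to 0.34) and above *Scg5* by 0.16 (0.0069 to 0.32). *Chga* and *Scg3* were the genes that had passed the test, and the pairs were formed after their values were seen, so these intervals describe the spread within the group and are no further test.

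Markers of cell types changed in the same libraries, and they give the setting in which the 10 genes are to be read. In bulk tissue, fewer cells of a type and less RNA per cell cannot be told apart. Of 8 neuron markers, 4 were downregulated, namely *Stmn2* (-0.21), *Tubb3* (-0.20), *Rbfox3* (-0.15) and *Uchl1* (-0.13), 1 was upregulated, *Syt1* (0.24), and the median log2 fold change was -0.11. The fold change of *Chga* lay within the range of the 4 downregulated neuron markers. The other 9 genes lay above the median of the neuron markers. Of 8 motor neuron markers 6 were downregulated, *Chodl* (-1.28), *Mmp9* (-0.74), *Slc18a3* (-0.49), *Mnx1* (-0.42), *Chat* (-0.35) and *Prph* (-0.34), with a median of -0.39 over the list. Of 8 astrocyte markers 4 were upregulated, *Gfap* (0.44), *Aqp4* (0.32), *Slc1a3* (0.25) and *Gja1* (0.17), with a median of 0.12, and *Scg3* at 0.15 lay just above this median. Of 8 microglia markers 7 were upregulated, among them *C1qa* (0.69), *Itgam* (0.54), *Csf1r* (0.53), *Aif1* (0.48), *Cx3cr1* (0.48) and *Tmem119* (0.33), with a median of 0.51. None of the 8 oligodendrocyte markers and none of the 4 endothelial markers passed the DESeq2 test. An unadjusted p under 0.05 was found for 3 of the oligodendrocyte and 0 of the endothelial markers, against 3016 of all 16522 genes tested. The smallest p-values were those of *Cldn11* (0.17, adjusted p = 0.068) and *Mog* (-0.15, adjusted p = 0.105) among oligodendrocyte markers, and of *Cldn5* (-0.15, adjusted p = 0.371) and *Flt1* (0.053, adjusted p = 0.724) among endothelial markers, by the DESeq2 test. The part of these markers in the values of *Scg3* and *Chga* was not tested.

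As the neuron markers were lower on balance, the zero point of the fold changes was also set at their median of -0.11, which adds the same amount to every gene of the table. On this scale 5 of the 10 genes were called, all higher, against 36.3% of all genes tested in either direction and 35.6% higher, so the count describes the shift of the zero point and is not a result about these genes. *Chga* then had a log2 fold change of -0.056 (DESeq2 estimate, adjusted p = 0.346) and no longer passed. The genes called were *Scg3* (0.27), *Scg2* (0.23), *Cpe* (0.18), *Chgb* (0.13) and *Scg5* (0.11). The markers themselves ranged from -0.21 to 0.24, and the centring takes their median as known without error.

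Tissue that could adhere to the cord was checked as well. Of 5 markers of dorsal root ganglion neurons, which also make granins, *Trpv1* was called higher (0.15, SE 0.047, DESeq2 adjusted p = 0.0265). With a base mean of 14.9, *Trpv1* was rare, so its small SE is not a sign of precision and the call is uncertain. The other 4, *Avil*, *Scn10a*, *Scn11a* and *Mrgprd*, had a log2 fold change between 0.011 and 0.090 but no p-value. These 4 are among 40 genes of the table with a fold change and no p-value, which DESeq2 withholds where the count of 1 library is extreme. Their base means were 8.80 to 86.9, against 808 or more for the 10 genes. None of the 3 Schwann cell markers passed the DESeq2 test and 0 had an unadjusted p under 0.05, and the smallest p-value was that of *Prx* (-0.013, adjusted p = 0.888). Of the markers of adrenal chromaffin cells, *Th* and *Dbh* did not pass the DESeq2 test (adjusted p = 0.0838 and 0.38), with 1 unadjusted p under 0.05, and *Pnmt* had a base mean of 1.11 and no adjusted p-value. The part of such tissue in the values of the 10 genes was not tested. The mouse gene *Sod1* had a log2 fold change of -0.050 (SE 0.045; DESeq2 adjusted p = 0.639), and the human transgene is not a row of the table, so the genotype of the libraries is not checked by it.

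The other genes of the pathway were given by lists. Of 12 other processing enzymes, *Ctsl* alone passed the test, against 7.10% of all genes tested. It was upregulated by 33.4% (log2 fold change 0.42, SE 0.042, DESeq2 adjusted p = 8.8e-21). It encodes cathepsin L, a lysosomal protease that can also cut prohormones in secretory vesicles. The other 11 genes, which include *Furin*, further convertases of the *Pcsk* family, *Pam* for peptide amidation and *Cpd*, did not pass, and the median of the list was -0.00049. *Pam* in particular, which acts after *Cpe*, stood at -0.0020 (SE 0.059).

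None of 24 genes for the biogenesis of dense-core vesicles passed the DESeq2 test. The list holds, for example, the subunits of the EARP complex, *Rab2a*, *Hid1* and the vesicle membrane protein *Ptprn*. Of the 24 genes 1 had an unadjusted p under 0.05, against 3016 of all 16522 genes tested. The smallest p-values were those of *Ica1* (-0.11, SE 0.054, adjusted p = 0.241), whose product binds Rab2, and of *Rab2a* (-0.074, SE 0.041, adjusted p = 0.324). Of these 24 genes 19 had a negative and 5 a positive fold change, with a median of -0.036. Among the genes tested in the range of base mean of the 10 members, 3729 were negative and 2316 positive. Over all genes tested, 8382 were negative and 8140 positive. The list reaches down to a base mean of 30.7, below the range of the 10 members, so neither set matches it in level. Genes are not independent replicates and no test was made on the list.

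Of 16 genes for vesicle transport and release, 2 were downregulated, while 3.24% of all genes tested were called lower. *Rab3b*, one of the Rab3 GTPases on secretory vesicles, fell by 18.4% (log2 fold change -0.29, SE 0.057, DESeq2 adjusted p = 1.5e-05), and *Rph3a*, which encodes the Rab3 effector rabphilin, fell by 9.4% (-0.14, SE 0.045, adjusted p = 0.0281). The median of the list was 0.026. The kinesin *Kif1a*, which carries dense-core vesicles along axons, stood at 0.0048 (SE 0.037), and the priming factor *Cadps* at -0.039 (SE 0.051).

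Of 26 precursors of neuropeptides carried by these vesicles, 2 were downregulated, while 3.24% of all genes tested were called lower. *Calcb*, the precursor of beta-CGRP, had a log2 fold change of -0.38 (SE 0.092, DESeq2 adjusted p = 0.0016), and *Uts2b*, the precursor of urotensin II-related peptide, of -0.39 (SE 0.092, adjusted p = 0.00098). The other 24 did not pass, with a median over the list of -0.039. None of the precursors was called higher, and *Gal* (0.25, adjusted p = 0.0793) and *Cartpt* (-0.26, adjusted p = 0.0588) were nearest to the threshold, named after their values were seen. With base means of 148 and 71.8, *Calcb* and *Uts2b* were much rarer than the granins.

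Of 4 receptors for granin-derived peptides, 3 were tested and 1 was called higher, while 3.86% of all genes tested were called higher. *C3ar1*, the receptor for complement C3a and for the *Vgf* peptide TLQP-21, was upregulated by 89.4% (log2 fold change 0.92, SE 0.089, DESeq2 adjusted p = 1.3e-22), while its ligand gene *Vgf* stood at 0.036 (SE 0.071). *C3ar1* is made by microglia in the nervous system, and 7 of 8 microglia markers were upregulated in the same libraries. *C1qbp*, another receptor for TLQP-21, stood at -0.072 (adjusted p = 0.598), and *Gpr83*, a receptor for the *Pcsk1n* peptide PEN, at -0.068 (adjusted p = 0.678). *Gpr171*, a receptor for the *Pcsk1n* peptide BigLEN, had a base mean of 1.75 and no adjusted p-value.

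Of 6 regulators of granin transcription, none passed the DESeq2 test. An unadjusted p under 0.05 was found for 0 of the 6, against 3016 of all 16522 genes tested. The smallest p-values were those of *Creb1* (0.096, SE 0.052, adjusted p = 0.318), which encodes the CRE-binding factor CREB, and of the REST corepressor *Rcor1* (0.082, SE 0.053, adjusted p = 0.441). Among the 3 genes with the full CRE, *Scg2*, *Chgb* and *Pcsk1* had log2 fold changes of 0.12, 0.019 and 0.012, and none passed the test. *Scg2*, with the letters of both parts of RE1, stood at 0.12, and *Rest* itself at 0.027 (SE 0.078). The genes called, *Chga* and *Scg3*, lacked the full CRE in the window searched, although *Chga* held the variant. *Pcsk2*, *Scg5* and *Pcsk1n*, which were not called, lacked the full CRE as well, and 1.79% of all promoters hold it. A link between the motifs and the fold changes was not tested.

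**Figure D5:**
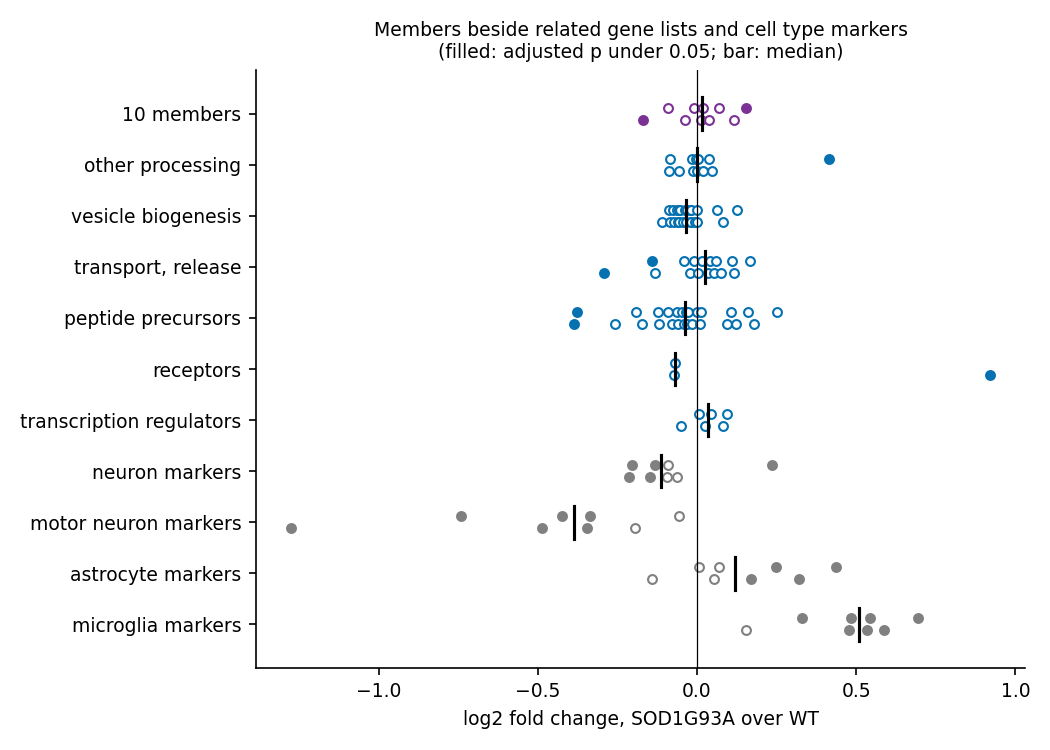
Log2 fold change, SOD1G93A over WT, of the 10 genes, of the related gene lists and of cell type markers, one point per gene tested, filled where the adjusted p-value was under 0.05, with a bar at each median. The 10 genes range from -0.17 to 0.15 around a median of 0.015, while the median is -0.11 for neuron markers, -0.39 for motor neuron markers, 0.12 for astrocyte markers and 0.51 for microglia markers.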

How the data were processed

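Spinal cord RNA of 5 SOD1G93A and 5 WT mice was sequenced. Per the study's methods, the authors filtered reads with Fastp, aligned them to mm10 with HISAT2, counted uniquely mapped reads per gene with featureCounts and tested the groups with DESeq2. The submitters' processing notes give HISAT2 2.1.0 and featureCounts 2.0.2. The annotation and the strand setting were not given in the sources used here. The deposited base mean is a signal, in which the authors averaged size-factor normalised counts over all libraries. The deposited log2 fold change and its SE are estimates of the authors' DESeq2 model. The header does not name the direction of the fold change, which was taken as SOD1G93A over WT from the study's text. The Wald score in the deposited table is the log2 fold change divided by its SE, and the deposited p-value follows from it. The table holds no library values, so the depth per library is unknown and the SE alone gives the precision. The authors' own estimates had to be used, since the genes were defined as rows of this table.

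P-values were adjusted anew by the Benjamini-Hochberg method across the same 16522 genes that have an adjusted value in the table, with 0.05 as the threshold for a call. Intervals are the estimate ± 1.96 SE. The 10 genes and all lists were chosen with earlier results of these data known. All 10 genes are named with their values, of each other list the genes past the threshold or, where none passed, the 2 with the smallest p. A few genes under this rule are not reported here. Values of further list genes are given as examples. Exon lengths are from GENCODE M21 (GRCm38, the build of mm10), and promoters are from RefSeq (GRCm38.p6). Removal of the prior assumed a sandwich SE and a prior SD of 0.185. The adjustment and the removal were tested on simulated data. These were made with the form of prior that the removal assumes, so they check the arithmetic only. Whether that prior, its SD and the chosen solution hold for the deposited values was not tested. The 5 libraries of a group were taken as separate mice. Each p-value sets a difference against its SE, through which alone the spread between these samples is seen. Python 3.11.15, numpy 2.4.6, pandas 2.3.3, scipy 1.17.1 and matplotlib 3.10.9 were used.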

Additional observations from a re-analysis of the deposited data

How the results depend on the processing

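No paired analysis was possible because the deposited table holds no values of single libraries, and for the same reason leaving out each replicate in turn was not run. *Scg3* passed at thresholds of 0.01 and 0.1 and over all sets of genes tried, and *Chga* passed except at 0.01, where 1 of the 10 genes was called. With the Holm adjustment 0 were called, and with the Benjamini-Yekutieli adjustment 0 (*Scg3* 0.0801, *Chga* 0.109). Centring on all genes changed no call. Centring on the neuron markers, whose count of 5 was added after the data were seen, shifts all genes alike and called 36.3% of all genes tested. The values were then -0.056 for *Chga*, which was lost, 0.23 for *Scg2*, 0.13 for *Chgb*, 0.18 for *Cpe* and 0.11 for *Scg5*, which were gained, and 0.077 for *Pcsk2*, 0.024 for *Pcsk1n* and 0.064 for *Sod1*, where the sign follows from the shift alone, as for *Scg5*. In other lists, a threshold of 0.01 left 1 release gene, 2 neuron, 2 astrocyte and 0 ganglion markers, and 0.1 gave 4 precursors, 1 oligodendrocyte and 1 chromaffin marker. Adjustment over base means of at least 100 left 1 precursor, 0 receptors and 0 ganglion markers. Holm left 1 release gene, 0 precursors, 0 neuron, 2 astrocyte and 0 ganglion markers, and Benjamini-Yekutieli left 1 release gene, 1 neuron, 2 astrocyte and 0 ganglion markers. Without division by length, *Pcsk2* took place 7 and *Scg5* place 9 among the 10.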
